A study of Mus musculus with 18 samples.

Results

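Islet libraries that carried much acinar RNA were set against islet libraries that carried little. For each of 18 libraries the mean log2 level of 3 acinar genes was taken: Cpa1 and Cpb1, which encode pancreatic carboxypeptidases, and Zg16, which encodes a protein of the zymogen granule. The libraries were chosen by this mean. The 6 with the highest mean are called acinar-rich and the 6 with the lowest acinar-poor, and the other 6 entered no fit. These are groups made from measured levels, not groups of the study, and the 3 defining genes stay out of all counts below. Which other genes followed the 3 acinar genes, and which endocrine genes did not, was the question asked of the remaining 10506 genes tested.

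The study measured mRNA 3' ends in pancreatic islets of mice given a high-fat diet for 12 weeks. Each library was taken as 1 mouse, from the animal numbers in the sample titles. In the 10 KO mice, NRK1 (gene Nmrk1), a kinase for nicotinamide riboside, was deleted with Ins1Cre, a Cre recombinase driven by the Ins1 gene and so active in beta cells, while the other islet cells keep the gene. The 8 control mice are labelled WT, and whether they carry Cre is not given in the labels. Each of the 2 compared groups held 3 KO and 3 WT libraries, and genotype was a term of the model. Reads of Nmrk1 were few in both genotypes and did not separate them, with 4 to 21 (median 13) in KO and 3 to 36 (median 16.5) in WT libraries. The labels do not say whether the 3' end read here lies in the deleted part, so its level neither checks the genotype labels nor follows them. Age and sex are not in the labels. Libraries held 2831137 to 4303680 reads over the listed genes, and KO and WT libraries are numbered within their genotype.

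Acinar cells make up most of the exocrine pancreas and secrete digestive proenzymes into the duct, stored until then in zymogen granules. Islets lie among them as small clusters of endocrine cells, mostly insulin-producing beta cells, and are freed by digesting the pancreas and picking the islets out. Acinar cells that stay attached, and RNA released by broken ones, are a familiar admixture of islet preparations because a few digestive enzymes make up a large share of acinar mRNA. The defining hormone of the labelled tissue was abundant in every library: Ins2 took 33.4 to 44.6% of the reads in acinar-rich and 38.8 to 45.9% in acinar-poor libraries.

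The score, the mean log2 value of the 3 defining genes, ran from 0.16 in WT 7 to 5.92 in KO 5. The acinar-rich libraries were KO 5 at 5.92, WT 4 at 5.77, KO 6 at 5.07, WT 8 at 4.12, KO 4 at 3.89 and WT 3 at 3.78. The acinar-poor libraries were KO 9 at 2.37, WT 5 at 2.32, KO 8 at 2.25, WT 6 at 0.97, KO 7 at 0.34 and WT 7 at 0.16. At the borders, WT 3 at 3.78 was taken and KO 10 at 3.38 was not, and KO 9 at 2.37 was taken and KO 2 at 2.5 was not. Levels here and below are the deposited log2 values, log2 of CPM (a library's read number scaled to a common library size) plus a floor of 0.562, so a gene with no read sits at −0.83. In reads, Cpa1 had 128 to 653 in acinar-rich libraries and 0 to 79 in acinar-poor ones.

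Position among the animal numbers in the sample titles went with the groups. KO 4, KO 5, WT 3 and WT 4 have consecutive numbers and were all acinar-rich, and WT 6 and WT 7 have consecutive numbers and were both acinar-poor. The run of KO 6, KO 7, KO 8 and WT 5 held both groups, with KO 6 acinar-rich and the other 3 acinar-poor. What a run of numbers shares (a litter, a day of isolation) is not given in the labels, and its part in the results was not tested beyond fits without these libraries or with the run as a term. WT 7 had 346 listed genes without a read, where the other acinar-poor libraries had 79 to 134 and the acinar-rich ones 33 to 93.

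The promoters of the 3 elastases and of Prss2 are shown first. They were picked among the acinar genes described below because each holds some of the short sequences named next. Acinar enzyme genes are activated by PTF1, a complex that reads an E-box and a TC-box, and many have a TATA box. The windows hold the 250 bases before the start site in RefSeq (GRCm38.p6), written 5′ to 3′ on the gene's strand, with capitals marking E-box CACCTG, TC-box TTTCCC and TATA box TATAAA on either strand. Cela1 lies on the minus strand and its window is chr15:100687921-100688170. Cela2a (chr4:141826006-141826255) and Cela3b (chr4:137430521-137430770) are also on the minus strand, and Prss2 (chr6:41521526-41521775) is on the plus strand.
Cela1: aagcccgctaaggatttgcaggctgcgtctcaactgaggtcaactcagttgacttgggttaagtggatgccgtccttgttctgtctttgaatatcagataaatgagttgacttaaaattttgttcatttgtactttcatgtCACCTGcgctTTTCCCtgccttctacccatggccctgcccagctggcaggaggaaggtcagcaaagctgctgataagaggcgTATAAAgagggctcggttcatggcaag
Cela2a: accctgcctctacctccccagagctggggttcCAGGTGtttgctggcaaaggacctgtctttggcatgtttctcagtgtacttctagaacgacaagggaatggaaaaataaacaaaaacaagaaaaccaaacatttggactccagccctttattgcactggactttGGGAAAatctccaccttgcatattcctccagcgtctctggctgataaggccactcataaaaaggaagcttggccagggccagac
Cela3b: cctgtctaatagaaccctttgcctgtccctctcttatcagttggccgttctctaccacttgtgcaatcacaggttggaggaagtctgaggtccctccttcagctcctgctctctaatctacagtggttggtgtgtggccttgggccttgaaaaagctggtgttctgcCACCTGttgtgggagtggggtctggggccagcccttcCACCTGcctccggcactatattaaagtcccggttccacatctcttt
Prss2: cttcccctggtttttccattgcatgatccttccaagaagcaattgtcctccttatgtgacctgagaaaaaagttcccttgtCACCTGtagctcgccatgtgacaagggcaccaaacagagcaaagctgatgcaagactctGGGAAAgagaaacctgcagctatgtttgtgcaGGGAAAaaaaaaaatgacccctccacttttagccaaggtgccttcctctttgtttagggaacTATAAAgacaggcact

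In the Cela1 window the E-box began 109 bases before the start, the TC-box 99 and the TATA box 27. Prss2 held the E-box at 169 bases, TC-boxes at 110 and 78 and the TATA box at 16, Cela2a an E-box at 218 and a TC-box at 84, and Cela3b E-boxes at 83 and 46 and neither of the other motifs. Of the other acinar genes, Ctrb1 had a TC-box alone, Pnlip a TATA box alone and Pnliprp2 an E-box alone. Sycn and Pnliprp1 had none of the motifs. Try4 held an E-box at 96 bases and a TATA box at 31, and 2210010C04Rik an E-box at 188 and a TATA box at 30. Ctrl held E-boxes at 149 and 93, so the windows shown are not the only ones with several matches. Of the 14 acinar genes called higher below, 12 had a window. CACCTG was in 8 of the 12 windows, or 66.7%, against 17.2% of all 32851 windows in the table and 15.9% of windows of genes tested. TATAAA was in 5, or 41.7%, against 12.4% of all windows and 6.10% of those of genes tested. TTTCCC was in 4, or 33.3%, against 21.9% and 22.7%, and both E-box and TC-box in 3, or 25%, against 3.61% and 3.49%. Both were counted at any distance from each other and on either strand, so the 3 are not a count of PTF1 sites. The motifs do not overlap each other in sequence, and a match describes letters and not bound factor.

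Digestive enzyme genes followed the 3 defining genes as a block. All 15 measured enzymes beside the defining ones were higher in acinar-rich libraries, by a median of 3.29 on the log2 scale where the median of all genes was 0.02, and 13 passed the test. The test was limma with genotype as a term and Benjamini-Hochberg adjustment over all genes, with an adjusted p under 0.05 counted as a call. Over all genes it called 21 higher, which is 0.200% of those tested, and 17 lower, or 0.162%. Of the 21 genes called higher, 14 were on the acinar lists. These lists hold products of the same cell as the defining genes, so their calls describe how closely the acinar genes moved together and are not independent evidence of it. Fewer acinar cells and less acinar RNA per cell cannot be told apart in bulk islets.

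**Figure D1:**
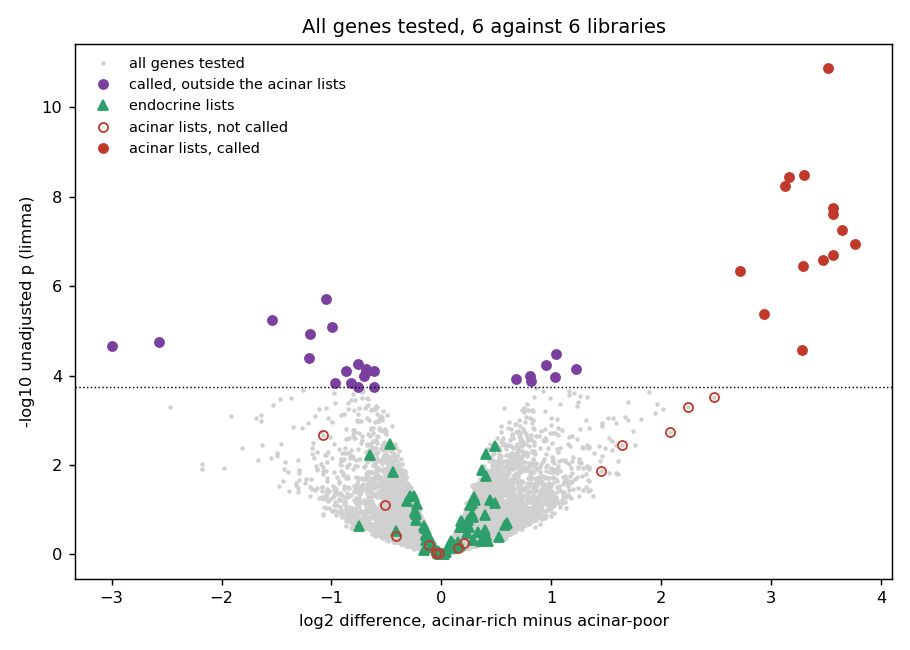
Each point is 1 of 10506 genes: the horizontal axis is the log2 difference, acinar-rich minus acinar-poor (6 against 6 libraries), and the vertical axis is −log10 of the unadjusted limma p. The dotted line is the largest p that was called. The 14 called acinar-list genes (filled red) lie between 2.72 and 3.76, apart from the called genes outside those lists (purple), and no gene of the endocrine lists (green triangles) lies above the line.

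The 3 elastases headed the list. Cela2a, a chymotrypsin-like elastase, ran from 5.70 over a median of 6.27 to 7.38 in acinar-rich libraries and from 2.09 over 2.94 to 3.56 in acinar-poor ones. Every acinar-rich library lay above every acinar-poor library. The difference was 3.52 ± 0.30 (SE), an 11.4-fold change on this scale, with a limma adjusted p of 1.41e-07. The middle libraries averaged 4.62 and Cela2a ranked the 18 libraries almost as the score did (Spearman's rho 0.99, Pearson's r 0.93, a description of libraries that share depth and handling).

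Cela3b ran from 6.97 over 7.96 to 9.04 in acinar-rich and from 3.48 over 4.56 to 5.87 in acinar-poor libraries. Cela1 ran from 6.69 over 7.82 to 8.71 and from 3.26 over 4.58 to 6.01. For both elastases the groups were again fully apart. Their differences were 3.30 ± 0.37 (SE) and 3.16 ± 0.35 (SE), each with a limma adjusted p of 1.27e-05.

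Ctrb1, chymotrypsinogen B, ran from 5.73 over 6.87 to 7.67 in acinar-rich libraries and from 2.81 over 3.21 to 4.86 in acinar-poor ones, a difference of 3.13 ± 0.36 (SE) with a limma adjusted p of 1.49e-05. Prss2, a trypsinogen, ran from 5.40 over 6.17 to 7.20 and from 1.16 over 2.77 to 4.41, a difference of 3.56 ± 0.43 (SE) with a limma adjusted p of 3.79e-05. Neither gene overlapped between the groups. Within acinar-poor libraries Prss2 stood highest in WT 5 and lowest in KO 7, where 6 reads were counted. Sycn, which encodes syncollin, a protein on the inner face of the zymogen granule membrane, is no enzyme and still moved with them. Its levels ran from 3.94 over 5.43 to 6.27 and from 0.47 over 1.80 to 3.23, a difference of 3.56 ± 0.44 (SE) with a limma adjusted p of 4.31e-05.

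**Figure D2:**
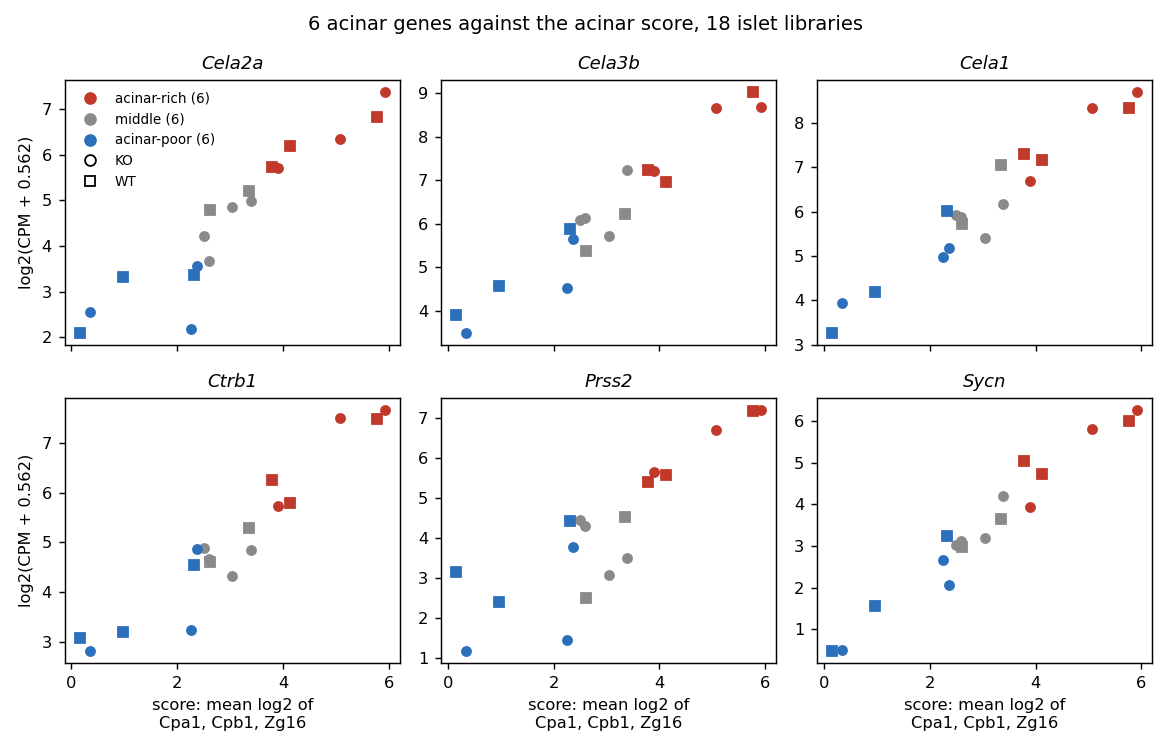
Each panel plots the log2(CPM + 0.562) level of 1 acinar gene in all 18 libraries against the acinar score (mean log2 of Cpa1, Cpb1 and Zg16), with colour for the score group and circles for KO and squares for WT. In each of the 6 panels the 6 acinar-rich libraries sit above the 6 acinar-poor ones, and for Cela2a the nearest values are 5.70 and 3.56.

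The remaining called enzymes covered fat and protein digestion. Among the lipases, Pnlip, pancreatic triglyceride lipase, differed by 3.64, its relatives Pnliprp1 and Pnliprp2 by 3.56 and 3.28, and Clps, the colipase that anchors lipase to fat droplets, by 2.93. Among the serine proteases, the trypsin-family gene 2210010C04Rik differed by 3.76, Try4 by 3.47, Try5 by 3.29 and the chymotrypsin-like Ctrl by 2.72. Prss2, Try4, Try5 and 2210010C04Rik are closely similar paralogs on chromosome 6, so the division of reads among the trypsins is uncertain. All 6 acinar-rich libraries lay above all 6 acinar-poor ones for 12 of the 15 enzymes, where 50 of all genes, or 0.476%, showed such a gap. The exceptions were Pnliprp2, Rnase1 and Klk1. Pnliprp2 was the weakest call (limma adjusted p 0.014) and had 10 reads in all acinar-poor libraries together against 303 in the acinar-rich ones. Clps and Pnliprp2 had no read in at least 1 acinar-poor library, and the log2 scale understates the change of such genes.

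Rnase1, pancreatic ribonuclease, and Klk1, tissue kallikrein, were the enzymes without a call. Rnase1 differed by 1.45 (limma adjusted p 0.219), with KO 4 at 0.69 as the only acinar-rich library within the acinar-poor range, and Klk1 differed by 2.08 (limma adjusted p 0.105). The granule and stress protein list had 5 measured genes beside Zg16, 3 of them higher, and Sycn was its only call. Reg1, lithostathine, differed by 2.48 and Tff2, a trefoil peptide, by 2.24, with limma adjusted p of 0.0578 and 0.0673. Pigr, the epithelial receptor that carries immunoglobulin A across cells, differed in the other direction, by −1.07 (limma adjusted p 0.114). It ran from 2.85 over 4.20 to 4.90 in acinar-rich and from 4.43 over 5.13 to 5.77 in acinar-poor libraries. It was called lower without KO 9, at −1.23 (limma adjusted p 0.0204). With the run of animal numbers as a term it differed by −2.62, a value that rests on KO 6, at 2.85 the lowest of the 18 libraries. Without the run of KO 4, KO 5, WT 3 and WT 4 it differed by −1.51 (limma adjusted p 0.455). Without the run of KO 6, KO 7, KO 8 and WT 5 it differed by −0.82 (limma adjusted p 0.498). Muc1 differed by −0.05.

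Acinar regulators and metabolic genes did not move as the enzymes did. None of the 7 measured was called, 1 had an unadjusted p under 0.05, 3 were higher and 4 lower, and the median difference was −0.03. As only 0.200% of all genes were called higher and 0.162% lower, no call among 7 says little by itself. Bhlha15 (Mist1), a transcription factor of mature secretory cells, was at 4.54 ± 0.50 (SD, n = 6) in acinar-rich and 4.65 ± 0.34 (SD, n = 6) in acinar-poor libraries, a difference of −0.12 with a 95% interval of −0.60 to 0.36. Pdia2, a protein disulfide isomerase abundant in pancreas, had the largest difference at 1.64 (limma adjusted p 0.138). Nupr1, a stress-induced nuclear protein, differed by −0.51, the amino acid transporter gene Slc38a5 by −0.41, Gatm of creatine synthesis by 0.21, Tmed6 by 0.15 and the peptidyl-prolyl isomerase gene Fkbp11 by −0.03. The intervals of 4 of the 7, Gatm, Bhlha15, Tmed6 and Fkbp11, exclude a 2-fold difference in either direction. Other members of the list, among them Ptf1a, were not analysed here.

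The enzyme RNA that could be summed was a small part of every library. The sum covers 15 enzymes of a list of 30, of which 17 were among the deposited genes. Cpa1 and Cpb1 are left out, so the shares are lower bounds. The 15 enzymes took a median of 0.142% of the reads in acinar-rich libraries, with a range of 0.0660 to 0.240%. In acinar-poor libraries they took a median of 0.0110%, with a range of 0.00608 to 0.0296%, which came to 181 to 1172 reads. Middle libraries took 0.0192 to 0.0568%, so their range overlapped the acinar-poor one. KO 9, at 0.0296%, lay above the middle libraries KO 3, KO 1 and WT 1, and WT 5, at 0.0283%, above KO 3. The make-up of this enzyme pool was also compared. Cela1 was 18.3% ± 2.02 (SD, n = 6) of the pool in acinar-rich and 20.4% ± 6.39 (SD, n = 6) in acinar-poor libraries, and Cela3b 21.2% ± 3.04 (SD, n = 6) and 20.8% ± 3.37 (SD, n = 6). None of the 15 shares differed past its test (two-sided exact permutation of the 12 libraries, smallest p = 0.121 for Rnase1, adjusted 0.809 over the 15). Rnase1 was 0.576% ± 0.369 (SD, n = 6) of the pool in acinar-rich and 2.19% ± 2.22 (SD, n = 6) in acinar-poor libraries. The wider spread in acinar-poor libraries came with fewer reads, and up to 4 of the 15 enzymes had no read in a library there.

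The acinar block was present in both genotypes. The median difference of the 15 enzymes was 3.34 among the 6 KO libraries alone and 3.16 among the 6 WT libraries alone. Cela2a differed by 3.71 in KO and 3.32 in WT libraries. Over all genes no difference between the genotypes in the size of the change was called (limma interaction term, smallest adjusted p 0.973, 514 genes at unadjusted p under 0.05). Ctrl showed the widest split among the called enzymes, 3.76 in KO and 1.67 in WT libraries.

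With the run of animal numbers as a term, a fit that rests on KO 6 against KO 7, KO 8 and WT 5, the median of the 15 enzymes was 4.03, and 12 of the 14 acinar genes were called, without Clps and Pnliprp2. Without the run of KO 4, KO 5, WT 3 and WT 4, which leaves KO 6 and WT 8 as acinar-rich, Cela2a, Cela3b, Cela1 and Ctrb1 were the only acinar genes called, at 3.43, 3.15, 3.16 and 3.04. Of the 14, 13 were called whichever of the 12 libraries was left out. Pnliprp2 was not called without KO 5, WT 4, KO 6 or WT 5.

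Outside the acinar lists 7 genes were called higher, by 0.68 to 1.22. P2ry1, a receptor for ADP, ran from 5.36 over 5.64 to 5.96 in acinar-rich and from 3.59 over 4.31 to 5.74 in acinar-poor libraries, a difference of 1.22 ± 0.26 (SE) with a limma adjusted p of 0.0283. Its acinar-poor range overlapped through KO 9 alone, at 5.74. Hadh, the mitochondrial hydroxyacyl-CoA dehydrogenase whose loss causes excess insulin secretion in people, ran from 7.44 over 7.85 to 7.95 and from 5.99 over 6.77 to 7.94, a difference of 1.03 ± 0.22 (SE) with a limma adjusted p of 0.0344. KO 9, at 7.94, was again the only acinar-poor library inside the acinar-rich range. In 6 of these 7 genes KO 9 was the acinar-poor library nearest to the acinar-rich ones, and in 6 of the 14 acinar genes.

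Paics, an enzyme of purine synthesis, differed by 1.04 and Tm4sf4, a membrane protein of the tetraspanin-like L6 family, by 0.95. Sox4, a transcription factor, differed by 0.81, Ddr1, a collagen receptor kinase, by 0.82 and Selenot, a selenoprotein of the endoplasmic reticulum, by 0.68. Selenot was the only one of the 7 whose groups did not overlap, at 5.82 to 6.34 against 5.10 to 5.62. Each of the 7 lost its call when 1 of at least 5 libraries was left out. None was called without the run of KO 4, KO 5, WT 3 and WT 4, where their differences ran from 0.49 for Sox4 to 1.35 for P2ry1. In that fit 568 genes had an unadjusted p under 0.05. With the run as a term, P2ry1, Hadh and Ddr1 were called and the other 4 were not.

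Lower in acinar-rich libraries were 17 genes, none on the acinar or endocrine lists, by 0.61 to 2.99 on the log2 scale. All 6 acinar-rich libraries lay below all 6 acinar-poor ones for 5 of the 17, where 38 of all genes, or 0.362%, did so. Mthfd2, a mitochondrial enzyme of folate metabolism, had the smallest p. It ran from 6.78 over 7.17 to 8.33 in acinar-rich libraries and from 8.20 over 8.44 to 8.48 in acinar-poor ones. WT 8, at 8.33, was the only acinar-rich library inside the acinar-poor range. The difference was −1.05 ± 0.17 (SE), with a limma adjusted p of 0.00157.

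Psat1, an enzyme of serine synthesis, ran from 3.82 over 4.18 to 5.01 in acinar-rich and from 5.0 over 5.46 to 5.92 in acinar-poor libraries, a difference of −1.20 ± 0.22 (SE) with a limma adjusted p of 0.0073. Trib3, a stress-induced pseudokinase, ran from 3.17 over 4.61 to 5.56 and from 5.49 over 5.87 to 6.69, a difference of −1.55 ± 0.27 (SE) with a limma adjusted p of 0.00397. In both genes WT 8 was again the acinar-rich library that reached into the acinar-poor range. Atf4, the transcription factor of the integrated stress response, of which Trib3 and Psat1 are known targets, ran from 9.03 over 9.78 to 10.09 and from 10.17 over 10.41 to 10.71. Its groups did not overlap, and the difference was −0.76 ± 0.16 (SE) with a limma adjusted p of 0.0253. Ddit3 (CHOP), another gene known to respond to that factor, differed by −0.68 and missed the threshold (limma adjusted p 0.0578).

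Igf1r, the receptor for insulin-like growth factor 1, ran from 7.58 over 7.80 to 8.20 in acinar-rich and from 8.20 over 8.90 to 9.33 in acinar-poor libraries. The groups met at KO 6 (8.198) and KO 9 (8.201) without overlapping. The difference was −1.0 ± 0.18 (SE), with a limma adjusted p of 0.00527. Il4i1, a secreted amino acid oxidase, and Lrg1, a leucine-rich glycoprotein of the acute phase, had the largest differences, −2.99 and −2.57 (limma adjusted p 0.0119 and 0.0105). Both were low: Il4i1 had 43 reads in the acinar-rich libraries together and 322 in the acinar-poor ones. WT 5, KO 8 and KO 7, of 1 run, had 121, 52 and 99 reads of Il4i1 and 92, 92 and 209 of Lrg1. KO 9, WT 6 and WT 7 had 25, 16 and 9 of Il4i1 and 37, 29 and 13 of Lrg1. Each gene lost its call without WT 5 and without KO 7. KO 5, at 3.14, stood far above the other acinar-rich libraries for Il4i1, which reached at most 0.65.

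**Figure D3:**
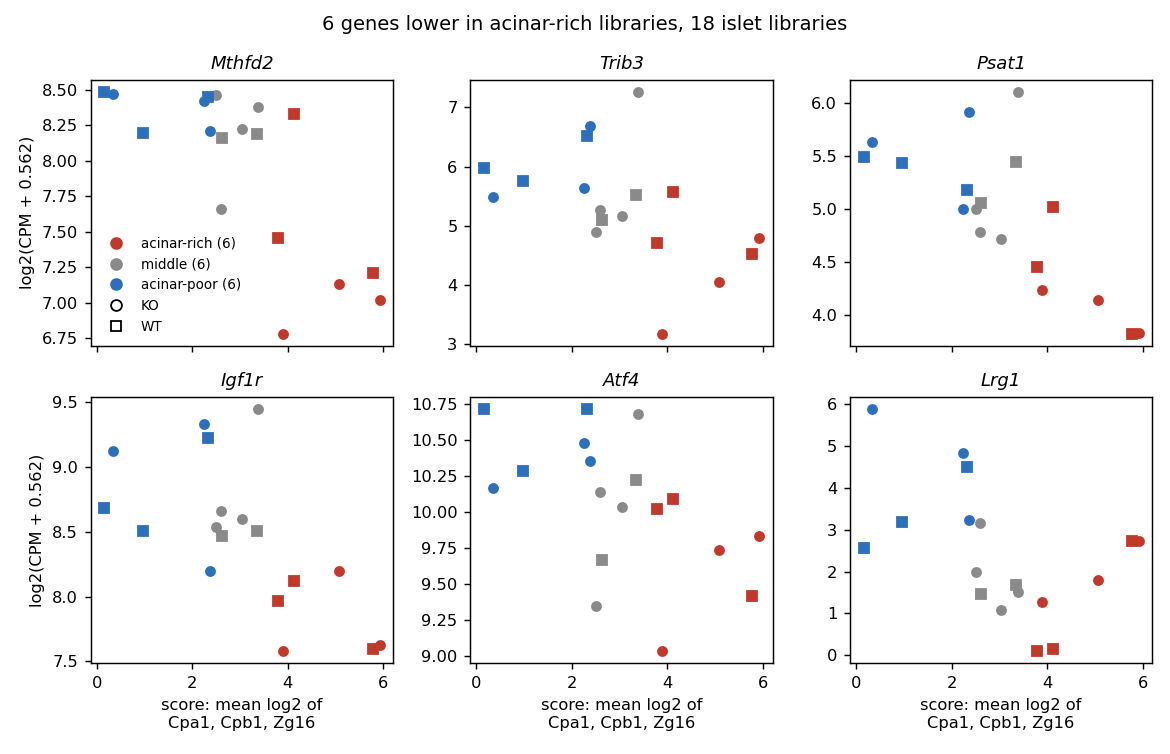
Each panel plots the log2(CPM + 0.562) level of 1 gene in all 18 libraries against the acinar score, with colours and symbols as in the plot of acinar genes. Acinar-rich libraries lie low, but the points scatter more than for the enzymes: WT 8 sits at 8.33 for Mthfd2, and middle libraries such as KO 10 reach 7.26 for Trib3, above every acinar-poor library.

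The other genes called lower covered several functions. Angptl6, an angiopoietin-like secreted protein, differed by −1.20, Pck2, mitochondrial phosphoenolpyruvate carboxykinase, by −0.82, and the antioxidant enzymes Gpx2 and Txnrd1 by −0.87 and −0.68. Nfe2l1, a transcription factor that raises proteasome genes, differed by −0.69 and the proteasome subunit Psma4 by −0.76. Kctd9 differed by −0.97, Gdap2 by −0.71, the serine carboxypeptidase Scpep1 by −0.62 and the GTPase-activating protein Git1 by −0.61. Scpep1, Kctd9 and Git1 were, with Igf1r and Atf4, the genes whose groups did not overlap.

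Mthfd2, Trib3, Igf1r and Psat1 were called whichever single library was left out, and the other 13 were not. Without the run of KO 4, KO 5, WT 3 and WT 4, Il4i1 was the only one of the 17 still called, at −3.84. Mthfd2 then differed by −0.64, Trib3 by −1.21, Igf1r by −0.69 and Psat1 by −0.87, and no gene changed direction. With the run as a term 6 of the 17 were called, namely Mthfd2, Igf1r, Psma4, Lrg1, Angptl6 and Il4i1. Trib3 (−1.59, limma adjusted p 0.0615), Psat1 (−1.14, limma adjusted p 0.161) and Atf4 (−0.61, limma adjusted p 0.312) were not. Without the run of KO 6, KO 7, KO 8 and WT 5, 13 acinar genes were still called higher and 0 genes were called lower by limma (918 genes in either direction at unadjusted p under 0.05). The amino acid response motif was searched as TGATGNAAT. No window before the start of the 17 genes held it (0 of 24 windows, for 16 genes). It was in 0.816% of all windows and 0.39% of windows of genes tested, so 24 windows would seldom hold it. The count says only that those letters are not there.

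Endocrine genes were not called in either direction. Of 77 measured genes on 6 lists (hormones, beta-cell identity, alpha-cell, delta- and PP-cell, granule and processing, exocytosis), 44 were higher and 33 lower, with a median difference of 0.06. At unadjusted limma p under 0.05 there were 4 higher and 5 lower, against 802 higher and 688 lower of all 10506 genes. Limma called 0 of the 77. Only 0.200% of all genes were called higher and 0.162% lower, so the lack of a call among 77 says little by itself. The 95% interval lay within a 2-fold difference either way for 60 of the 77, or 77.9%, against 66.1% of all genes. Interval width depends on expression level in this fit, and the 77 were not compared with genes of like level. A missed threshold does not show that a gene was equal, and the intervals give the range that these libraries allow.

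Hormone genes had wider intervals than most, with 3 of 8 inside a 2-fold difference. Ins1 differed by 0.34, with a 95% interval of −0.34 to 1.01, and ran from 15.34 to 16.33 in acinar-rich and from 14.35 to 16.71 in acinar-poor libraries. Ins2 differed by −0.16 (95% interval −1.31 to 0.99), with levels of 18.44 ± 0.23 (SD, n = 6) and 18.60 ± 0.23 (SD, n = 6). Its interval is wider than that spread, because limma draws the variance of each gene towards a trend over expression level. Iapp, islet amyloid polypeptide, differed by 0.23 (−0.25 to 0.71), glucagon (Gcg) by 0.40 (−0.35 to 1.14), somatostatin (Sst) by 0.15 (−0.52 to 0.83), Ppy by 0.29 (−0.53 to 1.11) and Pyy by 0.00 (−0.68 to 0.68). Gcg in KO 4 was 10.78, far below the group's median of 12.82.

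Beta-cell identity genes stayed closer to 0, with 22 of 26 intervals inside a 2-fold difference. The transcription factor genes Pdx1 and Nkx6-1 differed by −0.32 (−0.65 to 0.02) and −0.23 (−0.52 to 0.06). Slc2a2, the glucose transporter GLUT2, differed by 0.28 (−0.08 to 0.63) and Ucn3, urocortin 3, by 0.18 (−0.13 to 0.49). Slc30a8, the granule zinc transporter, differed by 0.37 (0.08 to 0.65) and Ero1b, an oxidase of disulfide formation, by 0.49 (0.17 to 0.80), with limma adjusted p of 0.215 and 0.141. Pax6, an islet transcription factor, differed by −0.47 (−0.76 to −0.17), with a limma adjusted p of 0.137. Nmrk1, the gene targeted in KO beta cells, differed by 1.01 (limma adjusted p 0.221), with 113 reads in the acinar-rich and 50 in the acinar-poor libraries.

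Granule and processing genes had all 13 intervals inside a 2-fold difference. Chga, chromogranin A, differed by −0.09 (−0.45 to 0.27), the prohormone convertases Pcsk1 and Pcsk2 by 0.29 (−0.11 to 0.69) and 0.19 (−0.10 to 0.48), and Scg2, secretogranin II, by −0.44 (−0.78 to −0.10). Ptprn, a granule membrane protein, was the only endocrine gene whose groups did not overlap, at 9.85 to 9.99 against 10.02 to 10.35, with a difference of −0.25. Among all genes 38, or 0.362%, lay fully below and 50, or 0.476%, fully above, so 1 among 77 is near that share. Among exocytosis genes Rims2, an active-zone scaffold, differed by −0.65 (limma adjusted p 0.167) and Syt4 by −0.29.

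**Figure D4:**
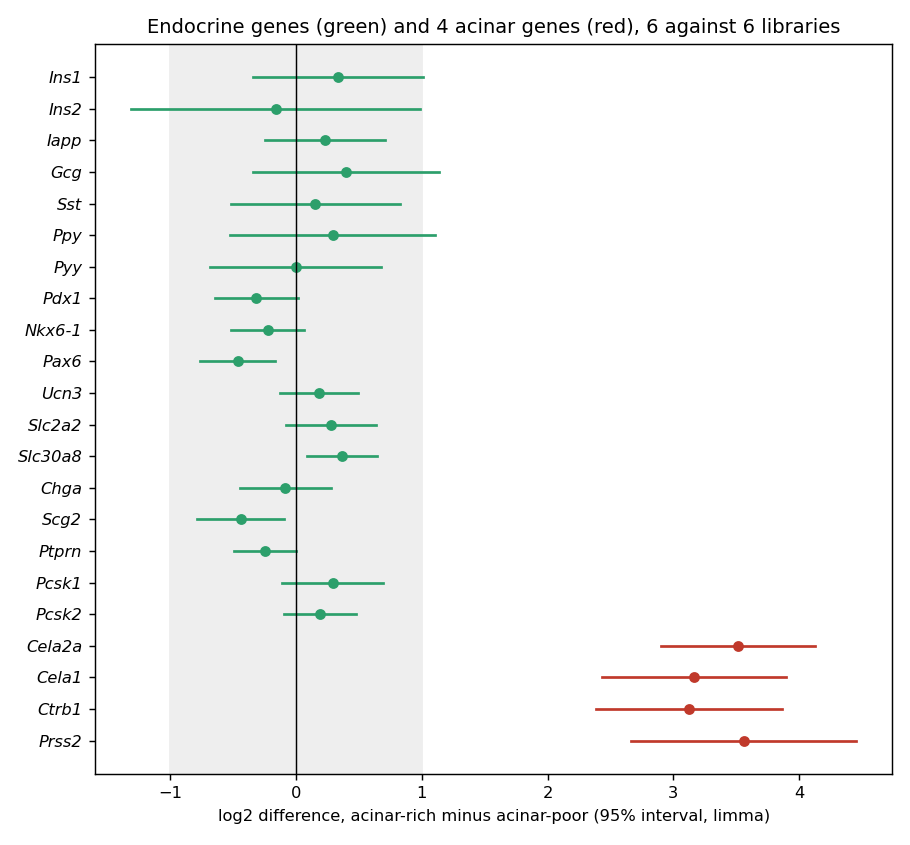
Points are log2 differences, acinar-rich minus acinar-poor (6 against 6 libraries), and lines their 95% limma intervals, for 18 endocrine genes (green) and 4 acinar genes (red), with the 2-fold range shaded. The interval of Cela1 starts at 2.43, while the highest end of an endocrine interval shown is that of Gcg at 1.14.

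Leaving out 1 library raised the endocrine count along with the count over all genes. Without KO 9, 5 of the 77 genes were called: Resp18 at 0.55 and Pcsk1 at 0.50 higher, and Rims2 at −0.88, Pax6 at −0.54 and Scg2 at −0.51 lower. Over all genes the counts then became 327 higher and 308 lower of 10506, so 5 among 77 is near that share. All 38 genes called before were again called, with 17 acinar genes higher and 1, Pigr, lower. KO 9 had the highest score of the acinar-poor libraries, 2.37. These 5 genes differed by far less than the enzymes, at most 0.88 on the log2 scale against a smallest enzyme call of 2.72 with all libraries. With the run as a term, Pax6 and Rims2 were called, at −0.88 and −1.21, and the median of the 77 genes was 0.02. Without the run of KO 4, KO 5, WT 3 and WT 4 that median was 0.09, and 0 of the 77 were called.

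Markers of other cells that an islet preparation can hold gave no call on any list. The lists held 2 to 15 tested genes each. With 0.200% of all genes called higher and 0.162% lower, lists this short would seldom hold a call. Duct cell genes had 5 of 15 higher and 10 lower, with a median of −0.16. The keratin Krt19 differed by 1.59 (limma adjusted p 0.226), with 2.68 in KO and 0.51 in WT libraries, and by 0.27 without the run of KO 6, KO 7, KO 8 and WT 5. Fibroblast and stellate genes had 7 of 15 higher and a median of −0.09, with Col5a1 at −1.55 and Sparc at −0.46. Endothelial genes had 6 of 14 higher and a median of −0.02, with Esam at 0.71 (limma adjusted p 0.0971). Myeloid genes had 9 of 13 higher and a median of 0.13. The summed level of the myeloid list was 167 to 281 CPM in acinar-rich and 90.6 to 496 CPM in acinar-poor libraries, that of the duct list 1185 to 1490 and 1232 to 1503 CPM, and that of the fibroblast list 296 to 521 and 330.0 to 532 CPM. Lymphocyte, adipocyte and Schwann cell lists had 2 or 3 measured genes each. With the run as a term the list medians were 0.22 for duct, −0.39 for fibroblast, −0.11 for endothelial, 0.80 for myeloid, 1.58 for adipocyte and −1.67 for Schwann cell genes. That fit rests on KO 6 against KO 7, KO 8 and WT 5, so these medians describe 1 acinar-rich library. KO 6 was the highest acinar-rich library for Fabp4 at 6.33 (next 4.90) and Adipoq at 3.61 (next 1.85).

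Chaperone and folding genes of the endoplasmic reticulum, which acinar and beta cells both use heavily, had 16 of 23 higher and a median of 0.16, with no call and 4 higher and 2 lower at unadjusted p under 0.05. Of all 10506 genes, 802 were higher and 688 lower at that limma threshold. With the run as a term, again KO 6 against KO 7, KO 8 and WT 5, the median of the chaperone and folding list was 0.49. Dnajb11, a co-chaperone, differed by 0.71 and Xbp1, a transcription factor of the unfolded protein response, by 0.60 (limma adjusted p 0.129 and 0.182). Genes of acinar injury and the acute phase had 3 of 7 higher and a median of −0.03. Lcn2, lipocalin 2, differed by −2.18 with a 95% interval of −3.84 to −0.51 (limma adjusted p 0.211). Its value turned on the run of KO 6, KO 7, KO 8 and WT 5: it was −6.16 with the run as a term (limma adjusted p 0.00267) and 0.16 without those 4 libraries (limma adjusted p 0.974). Without KO 9 it was called as well, at −2.83.

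Across all 18 libraries, the genes outside the acinar lists whose levels were most like the score were Sp2 and Eny2 at Pearson's r = 0.80, Hadh at 0.79 and Taf9b and Ndufb5 at 0.77. The closest acinar genes were nearer to it, with Sycn at 0.98 and the enzymes Cela1 at 0.97 and Cela3b at 0.96. Not all enzymes were: Klk1 was at 0.72 and Rnase1 at 0.63. These values describe 18 libraries that share the scaling of each library and were picked as the highest of all genes. Without KO 5 and WT 4, the 2 libraries of highest score, r was 0.77 for Sp2, 0.74 for Eny2, 0.78 for Hadh, 0.84 for Taf9b and 0.71 for Ndufb5. Taf9b, a subunit of transcription complexes, was low, with 104 reads in the acinar-rich libraries and 19 in the acinar-poor ones, and was not called (limma adjusted p 0.0529).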

How the data were processed

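Pancreatic islets of 10 KO and 8 WT mice were sequenced at transcript 3' ends (QuantSeq FWD), per the labels' protocols. Tools named in the submitters' processing notes, with no role, are edgeR, HTSeq 0.6.1 and STAR 2.5.2, and the build named there is GRCm38. The authors deposited log2 values for 10509 genes. From the values, they are log2 of CPM plus a floor of 0.562, since after subtracting it 100% of values were whole multiples of 1 read within 0.05 reads. How low genes were filtered, and on which annotation, is not stated by labels or headers.

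Libraries were ranked by the mean log2 of Cpa1, Cpb1 and Zg16, and the 6 highest were compared with the 6 lowest by limma 3.58.1 (R 4.3.3; empirical Bayes with trend, genotype as a term, two-sided), with Benjamini-Hochberg adjustment over 10506 genes. A filter of mean log2 above 0 removed no gene. The script was tested on simulated data. The members, lists and tests were chosen with earlier results of these data known. Named are all measured acinar-list genes, the 10 smallest p in each direction and the other called genes, a fixed set of endocrine genes (1 of which is not reported here), up to 3 genes of smallest p per other list, and the 5 genes most correlated with the score. The called genes beyond the 10 in each direction were added after their values were seen.

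Labels give no replicate number. Each library was taken as 1 mouse from the animal number in its title and numbered in accession order. The p-values measure the spread between these libraries. The 73 pairs of libraries of the same genotype differed by more than sampling noise (chi-square per degree of freedom 6.22 to 44.3). Each library held between 2831137 and 4303680 reads over listed genes, and the median gene had 61.5 (its median over libraries). Reads copied by PCR are not separate molecules, and counting error alone is then too small. The alternatives are in the closing section. As the file holds log2 values, the count alternative was limma voom on the recovered reads, which called 19 genes higher and 13 lower. Of the genes tested, 10505 were matched to RefSeq (GRCm38.p6), and promoter windows came from RefSeq on that build. Pools and shares were computed from recovered reads.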

Additional observations from a re-analysis of the deposited data

Results flagged for a closer look

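Within a group of 6 libraries, 1 library stood far from the other 5 in 22 of 228 groups checked (gap over range above Dixon's 0.625, which chance gives in about 5% of groups). KO 4 and KO 9 came up most.

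Among acinar-rich libraries, KO 4 was lowest for 3 endocrine genes: the glucagon gene Gcg at 10.78 (next 12.49), the somatostatin gene Sst at 9.43 (next 10.84) and the alpha-cell gene Ttr at 7.96 (next 9.19). KO 4 was also lowest for Rnase1 at 0.69 (next 2.62). KO 6 was highest for the fat-cell genes Fabp4 at 6.33 (next 4.90) and Adipoq at 3.61 (next 1.85), and lowest for Nmrk1 at 1.91 (next 2.44). KO 5 was highest for Il4i1 at 3.14 (next 0.65). WT 8 was lowest for the myeloid gene Itgax, with no read (−0.83), and WT 3 for the plasma-cell gene Mzb1 at −0.29.

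Among acinar-poor libraries, KO 9 was highest for Klk1 at 2.35 (next −0.83), for Pcsk1 at 8.05 (next 7.12) and for the leukocyte gene Coro1a at 2.76 (next 1.39). KO 9 was lowest for Psma4 at 5.79 (next 6.58) and for the ghrelin gene Ghrl, with no read (−0.83). WT 7 was highest for Ins2 at 19.03 (next 18.61) and for listed genes without a read, 346 (next 134), and lowest for Spp1 at 4.66 (next 6.57). WT 5 was lowest for Sox4 at 6.01 (next 6.67) and Itgax at 0.35 (next 2.16). WT 6 was highest for Scpep1 at 7.65 (next 7.29), and KO 7 lowest for Eny2 at 4.60 (next 4.91).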

How the results depend on the processing

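None of the 38 called genes changed direction in any of the 36 alternative settings, over 1363 values, while 525 of those values missed the threshold. The number of genes called did move. With 21 higher and 17 lower as reported, leaving out each library in turn gave 13 to 327 higher and 5 to 308 lower. Both upper ends came without KO 9, and without WT 8 there were 32 lower. Fewer higher calls came without WT 4, KO 6 or WT 5 (13 each), and fewer lower calls without WT 4 (6), KO 6 (8), WT 3 (8), WT 5 (7), KO 8 (7), WT 6 (8) and KO 7 (5). Acinar genes called higher then numbered 13 to 17, with Pigr called lower without KO 9, and endocrine genes 0 to 5, with 5 without KO 9 alone. Calls higher and lower were 9 and 0 with 9 libraries a side (850 genes at unadjusted p under 0.05), 153 and 120 with 4 a side, 187 and 158 with groups by Cpa1, 11 and 0 by Cpb1 (489 at unadjusted p under 0.05), and 32 and 11 by Zg16. They were 32 and 53 after median centring, 22 and 8 after quantile normalization, 20 and 6 after rescaling to reads outside the acinar lists, 6 and 0 without the variance trend (1318 at unadjusted p under 0.05), 13 and 15 with robust empirical Bayes, and 72 and 75 at adjusted p under 0.10. KO libraries alone gave 12 and 3, WT libraries alone 35 and 12, the run as a term 61 and 110, and the score as a continuous term over 18 libraries 20 and 2. The exact rank-sum test called 0 (1090 at unadjusted p under 0.05), as its smallest possible p, 0.00216, was shared by 88 genes. Settings added after seeing the data gave 4 and 1 without the run of KO 4, KO 5, WT 3 and WT 4, 11 and 0 for the continuous score over the 14 libraries outside it (750 at unadjusted p under 0.05), and 13 and 0 without the run of KO 6, KO 7, KO 8 and WT 5 (918). Acinar-list genes called were 9 with 9 a side, 5 without the trend, 7 with robust empirical Bayes, 0 by rank-sum and 4 outside the first run. Endocrine genes called, of 77, were 6 with 4 a side (Ppy, Pcsk1, Pax6, Rims2, Scg2, Ttr) and 6 by Cpa1. Those shares were larger than the shares of all 10506 genes called there, 153 higher and 120 lower, and 187 higher and 158 lower. After quantile normalization 1 was called (Slc30a8), where all genes gave 22 higher and 8 lower. With the run term Pax6 differed by −0.88 and Rims2 by −1.21. Of 72 uncalled named genes, 31 changed sign in some setting. The cause of these shifts was not tested. No paired analysis was possible because the labels carry no replicate numbers, and the fit with the run of animal numbers as a term, above, is the nearest to a block. Depth limits the low genes: Cpb1 had 0 to 15 reads in acinar-poor libraries.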
